A study of Mus musculus with 12 samples.

Results

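Osteosarcoma, a malignant tumour whose cells make bone matrix, was set against normal muscle of mice over all genes measured. The members are 6 of the 12 arrays of the study, namely the 4 whose tissue label is osteosarcoma and the 2 whose tissue label is muscle. Expression was measured on one-colour Illumina bead arrays. The other arrays, 2 of normal bone marrow and 4 of leiomyosarcoma, entered the model that gives the spread, and leiomyosarcoma served to test whether a difference was unequal in the other tumour. The labels give every sample, muscle included, the genotype p53 flow/flox and no treatment, and describe transgenic mice with a mutation of p53 that were watched until a tumour could be seen or a limb became paralysed. They name no recombinase, strain, sex or age, no site or stage of the tumours and no muscle, so the cells in which p53 was altered are unknown, and the muscle carries the same allele label as the tumours. All tissue was fresh frozen. Whether the samples came from separate animals is not stated, so p-values measure the spread among these samples, which may be technical. The titles of muscle 1 and bone marrow 2 begin with the same code, and the model takes these arrays as independent.

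Skeletal muscle fibres are packed with sarcomeres, in which myosin heads pull on actin when calcium from the sarcoplasmic reticulum binds troponin, and they renew their ATP through creatine kinase, glycogen and mitochondria. Adult fibres use their own gene copies for many of these tasks. Osteoblasts, the cells that osteosarcoma cells resemble, arise under the transcription factors Runx2 and Sp7, secrete type I collagen and mineralise it with the help of alkaline phosphatase, bone sialoprotein and osteocalcin. Osteoclasts, which come from the macrophage lineage under RANK ligand, dissolve that matrix with acid, cathepsin K and metalloproteinases.

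Of the 11754 genes tested, 2174 were higher (18.5%) and 1710 lower (14.5%) in osteosarcoma than in muscle in limma (p adjusted after Benjamini and Hochberg under 0.05 and a log2 difference of at least 1), so that 33% were called. The median difference over all genes was 0.06, and the samples of the groups did not overlap in 6521 genes (55.5%). Scaling the arrays to a common median in place of quantile normalisation gave 1659 higher and 2393 lower genes and moved the median of all genes to −0.34. All values below are log2 normalised signals or, where so named, log2 differences of osteosarcoma minus muscle ± SE, and a call always means that limma test. A gene stands for its brightest probe, and where another probe of a gene given with its difference departed from it by over 1.5 log2, that probe's difference is added, whether or not it was detected. In bulk tissue, fewer cells of a type and less RNA per cell cannot be told apart. The background constants that the authors subtracted were 80.8 and 84.0 on the muscle arrays and 99.3 to 105 on the osteosarcoma arrays, without overlap. Leiomyosarcoma alone had arrays at both levels, and with the level as a block 1461 genes were higher and 1184 lower, 2392 of them called without the block too. The effect of the background on single differences was not tested beyond that block, and genes named here that lost their call under it are named as they come up.

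**Figure D1:**
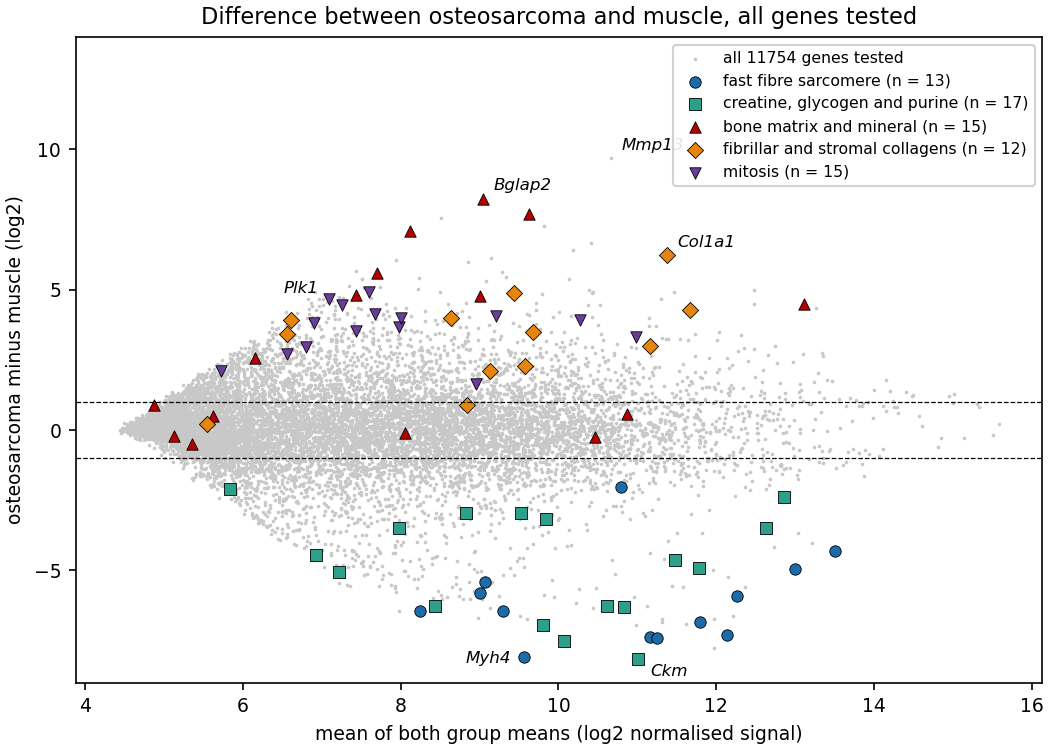
Each grey point is 1 of the 11754 genes tested, with the mean of both group means on the horizontal axis and the difference of osteosarcoma minus muscle on the vertical axis, both in log2, and dashed lines at a difference of 1 in either direction. Larger symbols mark 5 gene lists. The fast fibre genes (median −6.45) and the creatine, glycogen and purine genes (−4.63) lie below the lower line, and the mitosis genes (median 3.81) lie above the upper one.

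The correlation over genes, which is not one over independent points, was 0.935 between the muscles and 0.916 to 0.956 between the osteosarcomas, and 14169 to 17115 probes were detected on these 6 arrays. Between the muscles, 788 genes were at least 1 log2 higher in muscle 2 and 922 in muscle 1, and the 4 tumours spanned over 2 log2 in 863 genes. The tissue labels were checked against defining markers. Of 7 osteoblast markers, Sp7, Alpl, Ibsp, Bglap and Col1a1 were higher in osteosarcoma, Dmp1, an osteocyte gene, was not called, and Runx2 was not measured. Here a gene counts as measured if a named probe had a detection p under 0.05 on at least 2 of the 12 arrays. A gene not measured may thus have no named probe or too little detection. Of 7 skeletal muscle markers, Myh1, Myh4, Ckm, Tnnc2, Actn3 and Des were lower and Acta1 was not called. The call of Tnnc2 was lost with the background block, and that of Des with the block, without either muscle and on the 6 arrays alone. Trp53 and Mki67 have no probe in the annotation given and were not analysed here.

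The largest rises by fitted difference were in genes that bone-forming cells and matrix-degrading cells use. Mmp13, the collagenase of hypertrophic cartilage and bone, had signals of 6.10 and 5.56 in the muscles and of 15.56, 15.89, 14.70 and 15.89 in osteosarcomas 1 to 4. Its difference was 9.68 ± 0.38 (adjusted p = 6.5e-08, limma). All 4 tumours lay far above both muscles. Mmp13 held the highest signal of any probe on osteosarcomas 2 and 4, whether it was saturated there is unknown, and its 2 other probes gave differences of 1.88 and 5.64. Sp7, the zinc finger factor that osteoblasts need, was detected on neither muscle (4.65 and 4.83) and read 12.39, 12.45, 12.40 and 11.93 in the tumours, at least 102-fold higher (adjusted p = 2.2e-09, limma), with 3.87 for its other probe. The tumours were nearly level for Sp7 and did not overlap with muscle.

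Osteocalcin, the vitamin K-dependent protein that osteoblasts deposit in mineral, was measured by probes of 2 gene copies, Bglap and Bglap2, which are close to identical, so the split between them is uncertain. Bglap2 was detected on neither muscle (4.67 and 5.19) and had signals of 14.76, 15.30, 11.14 and 11.46 in osteosarcomas 1 to 4, at least 188-fold higher (adjusted p = 5.1e-05, limma). Bglap was likewise not detected in muscle (4.55 and 4.60) and reached 13.18, 14.16, 9.47 and 9.79, at least 65.8-fold higher (adjusted p = 0.00025, limma), while its other probe gave a fitted difference of 1.26. Both copies were high in osteosarcomas 1 and 2 and over 3 log2 lower in osteosarcomas 3 and 4. Leaving out osteosarcoma 2 lowered the fitted difference of Bglap2 from 8.24 to 7.52 and that of Bglap from 7.08 to 6.24. Without osteosarcoma 3 the values were 8.91 and 7.80, and without osteosarcoma 4 Bglap gave 7.70.

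Ibsp, bone sialoprotein, which nucleates mineral, showed another order. Its signals were 6.66 and 4.92 in muscle and 14.50, 9.58, 14.49 and 15.30 in the tumours, a difference of 7.68 ± 1.24 (adjusted p = 0.00043, limma). Osteosarcoma 2, which was highest for both osteocalcin copies, was the lowest tumour for Ibsp, still above both muscles. The difference was 8.98 without osteosarcoma 2, 7.07 without osteosarcoma 4, 8.55 without muscle 1 and 6.81 without muscle 2. Panx3, a channel protein of osteoblasts and chondrocytes, went from 6.02 and 6.13 to 12.61, 11.86, 13.73 and 10.65 (6.14 ± 0.60, adjusted p = 1.4e-05). Tmie, known from the mechanosensory channel complex of the inner ear, was not detected in muscle and read 9.79 to 10.89 in the tumours, at least 25.3-fold higher (adjusted p = 3.1e-07). Fgfr2, a receptor for fibroblast growth factors, was not detected on either muscle by this probe (5.10 and 4.75) and read 10.57 to 11.37 in the tumours, at least 41.1-fold higher (adjusted p = 2.4e-06), although the gene had a detected probe on 1 muscle and its 3 other probes gave −0.55 to 2.06.

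The largest falls were in genes of fast skeletal fibres and of their energy supply. Ckm, the muscle creatine kinase that regenerates ATP at the sarcomere, had signals of 15.33 and 14.85 in muscle and of 10.83, 4.63, 5.66 and 6.60 in osteosarcomas 1 to 4. The difference was −8.17 ± 1.22 (adjusted p = 0.00026, limma), −9.46 without osteosarcoma 1 and −7.40 without osteosarcoma 2. Osteosarcoma 1 stood over 4 log2 above the other tumours and over 4 log2 below both muscles. Myh4, the myosin heavy chain of the fastest fibres, fell from 14.39 and 12.81 to 7.25, 4.47, 5.24 and 5.17, and was detected on 1 of 4 tumours (−8.07 ± 0.62, adjusted p = 2.8e-06). Its difference was −7.28 without muscle 1 and −8.86 without muscle 2. Ckmt2, the mitochondrial partner of Ckm, fell from 14.63 and 13.03 to 9.48, 5.09, 5.02 and 5.67 (−7.51 ± 1.00, adjusted p = 0.00011), with −6.71 without muscle 1, −8.32 without muscle 2 and −8.57 without osteosarcoma 1. Pvalb, the calcium buffer parvalbumin, was the brightest probe of muscle 2 and had signals of 15.82 and 15.89 in muscle and of 13.03, 4.94, 7.44 and 6.98 in the tumours. Its difference of −7.76 ± 1.59 (adjusted p = 0.0021) was −9.40 without osteosarcoma 1 and −6.71 without osteosarcoma 2, and it was not called with the background block.

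**Figure D2:**
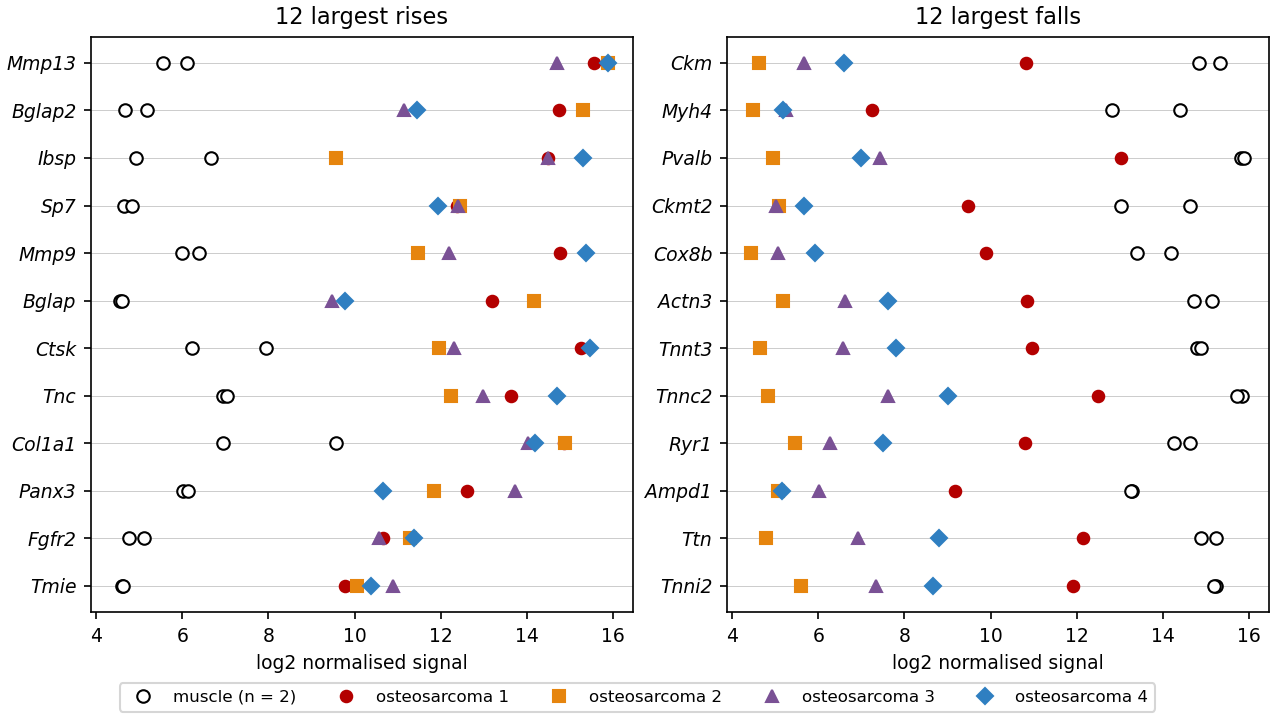
The 12 largest rises (left) and 12 largest falls (right) among the called genes that separate the groups, with the log2 normalised signal of each sample on the horizontal axis. Open circles are the 2 muscles and filled symbols the 4 osteosarcomas. In every fall shown osteosarcoma 1 is the tumour nearest to muscle, and among the rises Bglap and Bglap2 are high in osteosarcomas 1 and 2 while Mmp9 and Ctsk are high in osteosarcomas 1 and 4.

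To show what lies in front of these genes, the 250 bases before the start are given for the 3 largest rises and the 3 largest falls that have a single start in the RefSeq promoter table (GRCm38.p6), which holds 179 of the 240 genes that the naming rule gives. Each runs 5′ to 3′ in the direction of the gene and ends at the base before the start. Capitals mark ACCACA, searched on both strands (TGTGGT), the core motif of Runx factors, and CAGCTG, which reads the same on both strands and is a form of the E-box that myogenic factors bind. The motifs did not overlap in these stretches.
Mmp13: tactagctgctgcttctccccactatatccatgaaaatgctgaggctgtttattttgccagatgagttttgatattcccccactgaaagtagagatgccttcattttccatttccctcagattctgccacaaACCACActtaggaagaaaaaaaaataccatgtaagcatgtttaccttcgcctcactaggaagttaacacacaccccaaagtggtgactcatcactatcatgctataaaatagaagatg
Ibsp: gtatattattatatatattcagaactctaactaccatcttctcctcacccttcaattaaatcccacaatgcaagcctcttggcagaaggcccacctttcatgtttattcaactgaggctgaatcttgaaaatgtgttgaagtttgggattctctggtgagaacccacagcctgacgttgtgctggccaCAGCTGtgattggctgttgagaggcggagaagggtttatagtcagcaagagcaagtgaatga
Bglap: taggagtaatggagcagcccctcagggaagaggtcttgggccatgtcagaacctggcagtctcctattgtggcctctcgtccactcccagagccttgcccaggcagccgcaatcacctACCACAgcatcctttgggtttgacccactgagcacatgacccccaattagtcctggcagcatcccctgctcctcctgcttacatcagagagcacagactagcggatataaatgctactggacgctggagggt
Ckm: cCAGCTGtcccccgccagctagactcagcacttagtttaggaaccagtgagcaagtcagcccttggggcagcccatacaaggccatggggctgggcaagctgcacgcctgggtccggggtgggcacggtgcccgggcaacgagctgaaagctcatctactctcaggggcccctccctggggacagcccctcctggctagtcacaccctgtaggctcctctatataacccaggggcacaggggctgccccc
Myh4: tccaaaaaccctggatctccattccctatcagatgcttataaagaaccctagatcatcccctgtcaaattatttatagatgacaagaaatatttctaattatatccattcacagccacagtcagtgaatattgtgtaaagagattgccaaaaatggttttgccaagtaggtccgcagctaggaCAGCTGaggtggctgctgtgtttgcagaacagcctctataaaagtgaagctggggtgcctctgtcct
Ckmt2: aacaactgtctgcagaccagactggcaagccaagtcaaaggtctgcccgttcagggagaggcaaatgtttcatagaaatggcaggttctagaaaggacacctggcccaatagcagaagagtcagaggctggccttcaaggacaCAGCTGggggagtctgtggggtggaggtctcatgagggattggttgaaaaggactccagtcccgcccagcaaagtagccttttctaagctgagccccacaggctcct
The stretches are chr9:7272264-7272513, plus strand for Mmp13, chr5:104299037-104299286, plus strand for Ibsp, chr3:88384467-88384716, minus strand for Bglap, chr7:19410844-19411093, plus strand for Ckm, chr11:67237562-67237811, plus strand for Myh4 and chr13:91876886-91877135, minus strand for Ckmt2. ACCACA began 118 bases before the start of Mmp13 and 132 before that of Bglap. CAGCTG began 249 bases before the start of Ckm, 67 before that of Myh4, 107 before that of Ckmt2 and also 62 before that of Ibsp. Of all 32851 stretches of the same length in the table, 14.05% held ACCACA on either strand and 13.0% held CAGCTG, so a match is a description of these letters and not a binding site.

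Genes of the fast sarcomere fell almost as a body. Of 13 measured genes 11 were lower and 0 higher, with a median difference of −6.45 against 0.06 over all genes. With the background block 8 were lower. Tnnt3, the troponin T of fast fibres, went from 14.80 and 14.88 to 10.95, 4.64, 6.56 and 7.79 (−7.36 ± 1.19, adjusted p = 0.00044, limma). Actn3, the fast-fibre alpha-actinin, went from 14.73 and 15.16 to 10.84, 5.17, 6.61 and 7.61 (−7.39 ± 1.09, adjusted p = 0.00022). Both gave the same order of tumours, with osteosarcoma 1 highest, then 4, then 3, and osteosarcoma 2 under the lowest detected signal of its array (5.24). Without osteosarcoma 1 their differences were −8.51 and −8.48, and without osteosarcoma 2 −6.41 and −6.59. Acta1, skeletal actin, was the member of the marker set that was not called. It read 15.39 and 15.56 in muscle and 14.89, 5.64, 9.79 and 11.73 in the tumours, so osteosarcoma 1 was within 1 log2 of muscle, and the difference was −4.96 ± 1.93 (adjusted p = 0.055). It was −6.42 and called without osteosarcoma 1, −3.34 without osteosarcoma 2, and called with median scaling and on the unsubtracted series matrix.

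The same grading of the tumours appeared in the mean over each list. Over the 13 fast fibre genes the mean signal was 14.09 and 13.64 in muscle and 10.66, 5.33, 7.24 and 8.15 in osteosarcomas 1 to 4. All 4 tumours lay below both muscles, and they differed among themselves by over 5 log2. Z disc and giant protein genes, which anchor and measure the sarcomere, had means of 11.89 and 12.61 against 9.76, 5.29, 6.57 and 7.51. Among these, 15 of 16 measured genes were lower and 0 higher (median −5.19), and 8 were lower with the background block. Myom2, which links the thick filaments at the M band, fell from 12.62 and 11.98 to between 4.74 and 7.86 (−6.34 ± 0.62, adjusted p = 1.4e-05), −6.98 without osteosarcoma 1, with −0.37 for its other probe. Ttn, the giant spring protein titin, had a difference of −6.90 ± 1.42 (adjusted p = 0.0021), −8.23 without osteosarcoma 1 and −5.78 without osteosarcoma 2, and was not called with the background block, and its 11 other probes gave −7.02 to −0.03.

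Slow fibre genes did not fall as a body, and here the muscles disagreed. Of 10 measured genes 3 were lower and 1 was higher (median −2.58), and the count of lower genes was 7 without muscle 1, 1 without muscle 2, 7 without osteosarcoma 1 and 1 with the background block. Tnnt1, the slow troponin T, read 9.67 in muscle 1 and 14.62 in muscle 2 against 12.50, 5.73, 7.19 and 8.94 in the tumours, and was not called (−3.55 ± 1.58, adjusted p = 0.089). It was −6.03 and called without muscle 1, −1.08 without muscle 2, −4.85 and called without osteosarcoma 1, and −2.60 without osteosarcoma 2. Muscle 2 thus held about 5 log2 more signal of this gene than muscle 1. Mybpc1, slow myosin-binding protein C, was lower in all 4 tumours (9.19, 4.71, 4.62 and 5.69) than in muscle (10.66 and 12.94), with a difference of −5.74 ± 1.04 (adjusted p = 0.00095). It was −6.88 without muscle 1, −4.60 without muscle 2 and −6.79 without osteosarcoma 1, with −5.72 to −0.08 over its other probes. Tpm3, a tropomyosin with slow fibre and non-muscle transcripts, was the member that rose (2.89 ± 0.29, adjusted p = 1.7e-05), and its 5 other probes gave −2.89 to −1.09.

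**Figure D3:**
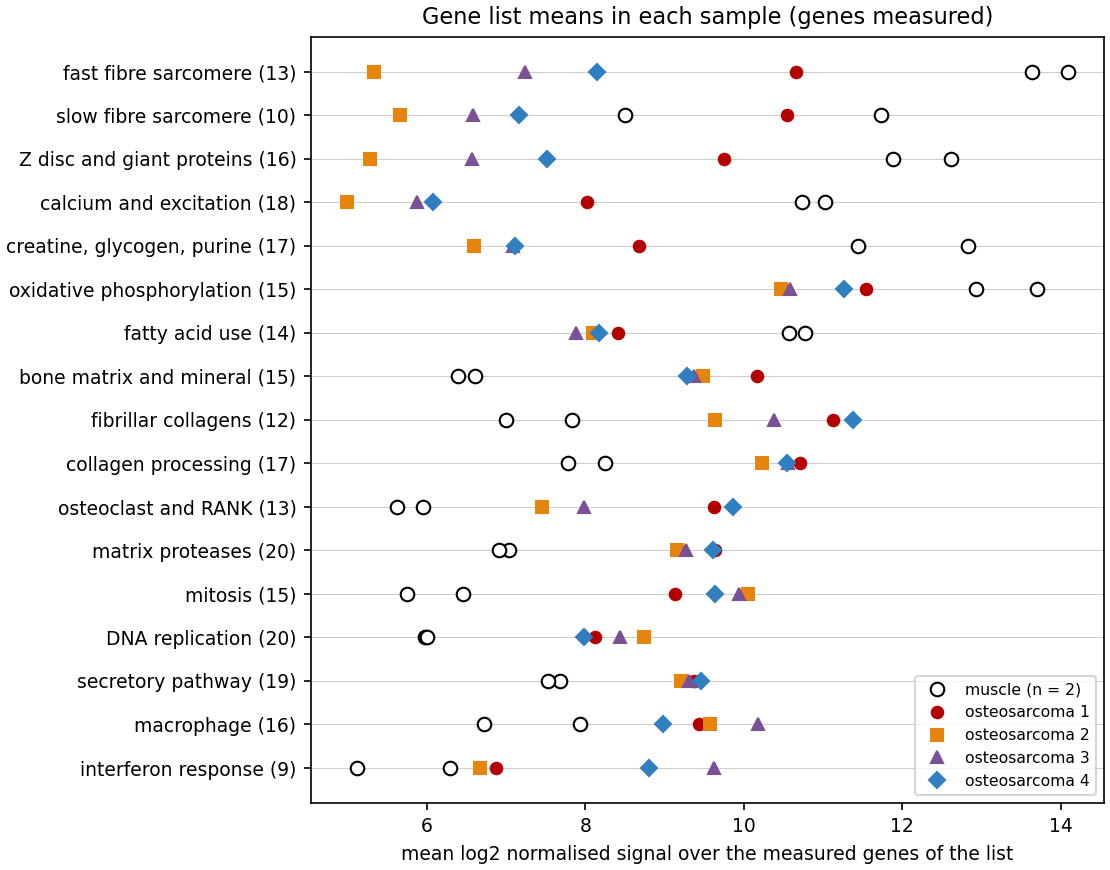
Mean log2 normalised signal over the measured genes of 17 lists (number of genes in brackets) in each sample. Open circles are the 2 muscles and filled symbols the 4 osteosarcomas. In the fast fibre list the tumours run from 5.33 (osteosarcoma 2) to 10.66 (osteosarcoma 1) below both muscles, in the mitosis list all tumours are above both muscles, and in the interferon list osteosarcomas 3 and 4 stand apart from 1 and 2.

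Genes that couple the nerve impulse to contraction fell in 16 of 18 measured cases, with 0 higher and a median difference of −4.69. Ryr1, the calcium release channel of the sarcoplasmic reticulum, went from 14.27 and 14.63 to 10.81, 5.45, 6.26 and 7.49 (−6.95 ± 1.06, adjusted p = 0.00029, limma), −8.05 without osteosarcoma 1 and −6.27 without osteosarcoma 2. Jph1, junctophilin, which holds the reticulum against the membrane, fell from 11.77 and 11.11 to between 4.81 and 7.26 (−5.59 ± 0.52, adjusted p = 1.0e-05). No single sample moved the value of Jph1 by over 1.5-fold. The other probes gave −6.92 to −2.73 for Ryr1 and −2.92 for Jph1.

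At the neuromuscular junction, 5 of 8 measured genes were lower and 3 higher, against 2 lower and 1 higher with the background block and 3 lower without muscle 2 or on the 6 arrays alone. The receptor subunits for acetylcholine were among the lower ones. Chrnb1, the beta subunit, went from 10.26 and 12.25 to 8.48, 5.97, 5.45 and 5.98 (−4.78 ± 0.85, adjusted p = 0.00085), −5.78 without muscle 1, −3.79 without muscle 2 and −5.45 without osteosarcoma 1. Chrng, the gamma subunit of immature or denervated fibres, read 8.33 in muscle 1 and 13.02 in muscle 2 and 8.60, 4.56, 5.18 and 6.14 in the tumours, and its call (−4.55 ± 1.16, adjusted p = 0.0076) was lost without muscle 2, with the background block and on the 6 arrays alone. Its difference was −6.90 without muscle 1 and −5.38 without osteosarcoma 1, and its other probe gave −1.17. Agrn, the matrix protein agrin, which clusters these receptors and is also made outside the junction, moved the other way, from 10.07 and 8.97 to 12.57, 12.07, 12.66 and 12.45 (2.92 ± 0.31, adjusted p = 2.2e-05). Lrp4, the agrin receptor, which in bone binds sclerostin, rose by 2.46 ± 0.49 (adjusted p = 0.0018) and was not called with the background block. The third higher gene was Ncam1 (3.00 ± 0.50), not called with the background block, 2.29 without muscle 1 and 3.71 without muscle 2, and its other probes gave −2.92 to 0.31.

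Regulators of the muscle lineage were lower in 6 of 9 measured cases, with 0 higher. With the background block 3 were lower, 4 were lower on the 6 arrays alone, and 4 were lower and 1 higher without muscle 2. Without osteosarcoma 4 also 1 was higher. Myf6, the myogenic factor of mature fibres, fell from 12.10 and 13.54 to 8.75, 4.70, 4.96 and 6.41 (−6.61 ± 0.88, adjusted p = 0.00011, limma), −7.33 without muscle 1, −5.89 without muscle 2 and −7.46 without osteosarcoma 1. Myod1, the founding factor of the family, fell from 6.89 and 9.16 to between 4.67 and 5.58, with detection on 1 of 4 tumours (−3.06 ± 0.48, adjusted p = 0.00034), and gave −4.19 without muscle 1 and −1.92 without muscle 2. Among genes of embryonic or denervated muscle, 10 of 13 were lower and 0 higher, against 6 lower with the background block or on the 6 arrays alone, 6 lower and 1 higher without muscle 2, and 13 lower without muscle 1. Fbxo32, a ubiquitin ligase of muscle atrophy, fell from 10.30 and 10.77 to between 5.31 and 6.88 (−4.59 ± 0.37, adjusted p = 4.1e-06). Gadd45a, which is induced in denervated muscle and is also a target of p53, read 9.04 in muscle 1 and 13.04 in muscle 2 and 5.31 to 8.16 in the tumours (−4.67 ± 0.96, adjusted p = 0.0022), −6.67 without muscle 1, −2.67 without muscle 2 and −5.26 without osteosarcoma 1. Muscle 2 was the higher muscle for Tnnt1, Chrng, Myod1 and Gadd45a alike. Limb paralysis is named in the labels as a reason for ending the observation of an animal, without saying which animal had it, and its part in these values was not tested.

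Many tasks in adult muscle are done by a gene copy of its own, and the paired copies allow the muscle form to be set against the form of slow fibres or other tissues. Both genes were measured in 22 of 29 such pairs. The muscle form was lower in 21 pairs, all but Acta1, with a median difference of −6.28 over the 22. The paired form was higher in 10, lower in 0 and not called in 12, with a median of 0.91. With the background block the muscle form was lower in 17 pairs and the paired form higher in 7, and the paired form was lower in 3 pairs without muscle 1 and in 2 without osteosarcoma 1. Probes cannot be compared in level with each other, so only the differences are set side by side. Ckm fell by 8.17, while Ckb, the creatine kinase of brain and other tissues, rose from 10.35 and 10.11 to 15.54, 13.38, 14.16 and 15.82 (4.49 ± 0.58, adjusted p = 8.7e-05, limma). Every tumour was at least 3 log2 above both muscles for Ckb. Tuba8, an alpha-tubulin of muscle, fell from 11.23 and 11.17 to between 4.55 and 5.34 (−6.45 ± 0.25, adjusted p = 6.2e-08), and Tuba1b, a tubulin of dividing cells, rose from 10.65 and 11.12 to between 13.71 and 13.88 (2.92 ± 0.20, adjusted p = 1.5e-06). The other probes of Tuba8 gave −5.50 and 0.25.

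The pairs reached into translation and respiration. Rpl3l, the ribosomal protein that replaces Rpl3 in muscle ribosomes, went from 14.72 and 13.12 to 10.01, 4.94, 9.09 and 7.94 (−5.93 ± 1.05, adjusted p = 0.00078, limma), and Rpl3 from 12.33 and 12.89 to between 14.24 and 14.42 (1.73 ± 0.20, adjusted p = 4.6e-05). The value of Rpl3l was −5.13 without muscle 1, −6.73 without muscle 2, −6.60 without osteosarcoma 1 and −4.91 without osteosarcoma 2. Ampd1, AMP deaminase of muscle, fell by 6.93 ± 0.89 (adjusted p = 8.6e-05), or by 7.87 without osteosarcoma 1. Ampd2, its counterpart, was not detected in muscle and was at least 4.38-fold higher in the tumours (adjusted p = 4.9e-05), with 0.04 for its other probe. Cox6a2, a heart and muscle subunit of cytochrome oxidase, had a difference of −6.84 ± 1.36 (adjusted p = 0.0017), −8.06 without osteosarcoma 1 and −5.86 without osteosarcoma 2, and was not called with the background block. Cox6a1, the form of other tissues, rose by 2.55 ± 0.26 (adjusted p = 1.6e-05). Tnnt1, the slow form paired with Tnnt3, was not called, with the exceptions given above.

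**Figure D4:**
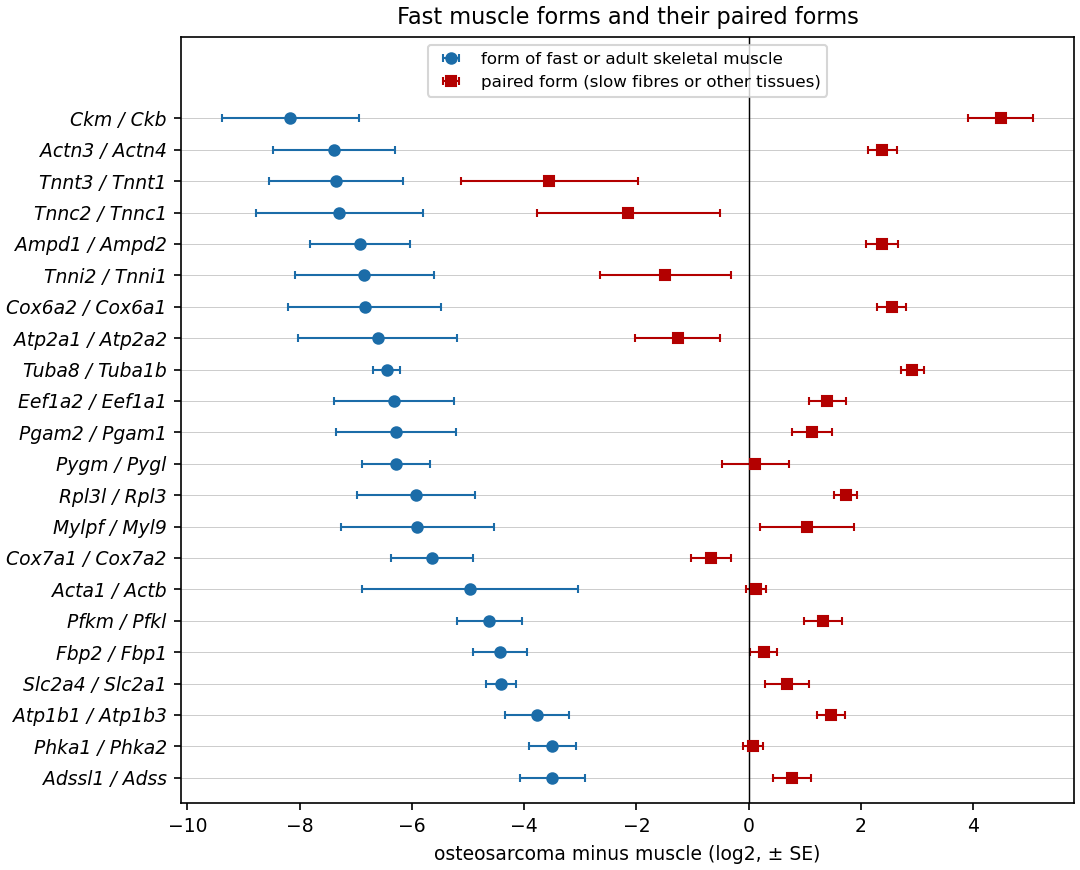
Differences of osteosarcoma minus muscle in log2, with SE from the limma model, for 22 pairs of genes, ordered by the difference of the muscle form. Blue circles are the form of fast or adult skeletal muscle and red squares the paired form. The blue circles lie between −8.17 (Ckm) and −3.50, and the red squares between −3.55 (Tnnt1) and 4.49 (Ckb).

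Energy genes were lower in the tumours in each of 4 lists, to unequal degrees. All 17 measured genes of creatine, glycogen and purine metabolism were lower (median −4.63), as were all 14 of fatty acid use (median −2.21), 12 of 14 of the citrate cycle and mitochondrial carriers (median −2.01) and 12 of 15 of oxidative phosphorylation (median −1.45), with 0 higher in any of them. Pygm, the glycogen phosphorylase of muscle, fell from 12.44 and 10.72 to 6.96, 4.57, 5.07 and 4.59 (−6.28 ± 0.61, adjusted p = 1.2e-05, limma), −5.42 without muscle 1 and −7.14 without muscle 2. Pygm and Tuba8 were detected on 1 of 4 tumours. Ckmt2, Mybpc1, Chrng, Myf6 and Ampd1 above and Slc2a4, Plin4 and Nog below were detected on 2 of 4. The sizes of these falls rest partly on background signals. Slc2a4, the insulin-responsive glucose transporter, fell from 10.02 and 9.25 to between 4.91 and 5.68 (−4.41 ± 0.27, adjusted p = 7.3e-07). Ppargc1a, the coactivator that drives the making of mitochondria, was detected on both muscles (9.13 and 8.24) and on 0 of 4 tumours, at least 10.96-fold lower (adjusted p = 6.2e-07), although its other probe gave 0.07. Cpt1b, which admits fatty acids to muscle mitochondria, fell from 12.05 and 11.67 to 8.04, 5.99, 6.05 and 5.76 (−5.40 ± 0.51, adjusted p = 1.0e-05).

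Some respiratory genes that other tissues use as well were also lower. Cycs, cytochrome c, went from 13.19 and 12.15 to between 10.48 and 10.98 (−1.99 ± 0.28, adjusted p = 0.00015, limma). Pdha1, a subunit of pyruvate dehydrogenase, went from 12.04 and 11.35 to between 9.23 and 9.94 (−2.16 ± 0.32, adjusted p = 0.00024). Cox7a1, another muscle form, fell from 14.42 and 12.18 to 9.21, 6.68, 6.44 and 8.31 (−5.64 ± 0.74, adjusted p = 9.5e-05), −4.52 without muscle 1 and −6.76 without muscle 2. Glycolysis was mixed, with 5 of 14 measured genes higher and 4 lower (median −0.17). Aldoa, the aldolase of muscle, fell from 15.05 and 14.72 to between 10.74 and 11.82 (−3.68 ± 0.35, adjusted p = 1.0e-05), and Pfkp, the platelet type of phosphofructokinase, rose from 5.66 and 5.88 to between 7.43 and 8.89 (2.26 ± 0.40, adjusted p = 0.00074), with 0.15 and 0.69 for its other probes. The higher count was 1 with the background block and 3 without muscle 2, and the lower count was 7 without muscle 2. Of 8 measured adipocyte genes 6 were lower and 0 higher, among them Plin4, a lipid droplet protein that muscle also makes (−5.75 ± 0.52, adjusted p = 7.5e-06), −4.99 without muscle 1 and −6.50 without muscle 2. Of 9 hypoxia genes 1 was higher and 1 lower, against 18.5% higher and 14.5% lower over all genes. Each count ran from 0 to 2 over the settings.

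On the side of bone, 4 of 10 measured osteoblast regulators were higher and 1 lower (median 1.13), and 8 of 15 bone matrix and mineral genes were higher and 0 lower (median 2.58). No muscle array detected 4 of the 10 and 7 of the 15. With bounds for undetected genes the medians were 0.70 and 1.83. Besides Sp7, Dlx3, a homeobox gene of osteoblasts and teeth, was not detected in muscle and read 8.09, 9.01, 8.42 and 7.01 in the tumours, at least 5.75-fold higher (adjusted p = 0.0002, limma). Alx4, a homeobox gene of limb and skull, rose from 5.63 and 6.91 to 9.56, 10.65, 9.97 and 9.19 (3.57 ± 0.43, adjusted p = 6.0e-05), 2.93 without muscle 1 and 4.21 without muscle 2, with 0.19 and 0.28 for its other probes. Mef2c, a factor of muscle that also acts in bone and cartilage, was the lower member (−1.30 ± 0.37, adjusted p = 0.014), a call that was lost without muscle 2, with the background block and on the 6 arrays alone, and its other probes gave −3.68 to −0.12. Alpl, alkaline phosphatase, which frees phosphate for mineral, rose from 6.81 and 6.44 to 11.86, 9.48, 12.40 and 11.80 (4.76 ± 0.60, adjusted p = 7.6e-05), or 5.39 without osteosarcoma 2, the tumour lowest for Alpl as for Ibsp. Pth1r, the receptor for parathyroid hormone, was not detected in muscle and reached 9.96, 10.30, 11.50 and 10.25, at least 29.7-fold higher (adjusted p = 5.7e-06), with 2.98 and 4.84 for its other probes. Ifitm5, a membrane protein of mineralising osteoblasts, was not detected in muscle either and read 9.56, 11.21, 9.91 and 8.70, at least 18.8-fold higher (adjusted p = 2.0e-05).

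Collagens rose with their makers. Of 12 measured fibrillar and stromal collagens 10 were higher and 0 lower (median 3.46), and of 17 genes that fold, modify and trim collagen 14 were higher and 0 lower (median 2.73). Col1a1, the main chain of bone collagen, read 9.58 in muscle 1 and 6.94 in muscle 2 and 14.87, 14.88, 14.04 and 14.19 in the tumours (6.24 ± 0.54, adjusted p = 5.7e-06, limma), 7.56 without muscle 1 and 4.91 without muscle 2. Col1a2, the partner chain, went from 7.84 and 6.15 to 12.30, 12.48, 11.29 and 11.48 (4.89 ± 0.45, adjusted p = 8.5e-06), 5.74 without muscle 1 and 4.04 without muscle 2. Muscle 1 was the higher muscle for both chains, and the tumours were closer to each other than the muscles were. Serpinh1, the collagen chaperone of the endoplasmic reticulum, went from 11.70 and 10.47 to 15.84, 15.75, 14.61 and 15.56 (4.36 ± 0.41, adjusted p = 1.0e-05), 4.97 without muscle 1 and 3.74 without muscle 2. Crtap, part of the prolyl 3-hydroxylase complex, rose from 7.91 and 7.12 to between 11.23 and 11.51 (3.82 ± 0.28, adjusted p = 2.4e-06). Col8a1, a chain of a short non-fibrillar collagen, was the least even, at 12.49 and 13.17 in osteosarcomas 1 and 4 and 7.41 and 9.45 in 2 and 3 (3.98 ± 1.25, adjusted p = 0.023). Its call was lost without either muscle, without osteosarcoma 1, with the background block, on the 6 arrays alone and with no filter on detection. Its value was 5.05 without osteosarcoma 2 and 3.13 without osteosarcoma 4. With the background block 6 of the 12 collagens were higher.

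Other matrix genes were less uniform. Of 21 measured matrix glycoproteins and proteoglycans 6 were higher and 0 lower (median 0.87), and 3 were higher with the background block and 1 was lower without osteosarcoma 2. Tnc, tenascin C, a matrix protein of developing bone and of tumours, rose from 6.94 and 7.03 to 13.64, 12.25, 12.99 and 14.70 (6.41 ± 0.93, adjusted p = 0.0002, limma), with 0.82 to 6.99 over its 6 other probes. Bgn, biglycan, a proteoglycan of bone, read 14.04, 14.04, 13.93 and 13.98 in the tumours against 10.81 and 10.43 (3.38 ± 0.45, adjusted p = 0.00012), and the tumours were nearly level. Cartilage genes were 2 higher and 3 lower of 11 measured (median 0.03), against 18.5% higher and 14.5% lower over all genes. The counts were 1 higher and 0 lower on the unsubtracted series matrix and 1 higher and 1 lower with the background block. Under most other settings 1 was higher. Col2a1, the collagen of cartilage, was not detected in muscle and read 8.34, 7.88, 8.29 and 9.47, at least 7.38-fold higher (adjusted p = 0.0006), with 1.76 and 2.21 for its other probes. Sox9, the master factor of cartilage, was not called (7.81 and 10.23 against 9.35 to 12.32, 1.62, adjusted p = 0.097). Sox9 gave 0.41 without muscle 1, and it was called without muscle 2 (2.83), without osteosarcoma 4 (2.05) and with the replicate block (2.00), an added term for samples of the same number. Acan, the cartilage proteoglycan, was not called either (1.45, adjusted p = 0.17, 0.70 without osteosarcoma 1). Comp, a cartilage oligomeric protein, was at the edge of the call (1.53 ± 0.57, adjusted p = 0.048), and osteosarcoma 2 (6.44) lay below muscle 2 (6.91). The call of Comp was lost under most settings. These included leaving out either muscle or osteosarcoma 1, 3 or 4, median scaling, the background block and the 6 arrays alone.

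Genes that degrade matrix rose, those of osteoclasts unevenly. Of 20 measured proteases and their inhibitors 13 were higher and 0 lower (median 2.21, or 1.78 with bounds for undetected genes). Without osteosarcoma 2 or 3 and with median scaling 1 was lower. Mmp14, the membrane-bound activator of other metalloproteinases, went from 8.28 and 8.32 to 13.16, 11.59, 12.92 and 13.35 (4.46 ± 0.49, adjusted p = 2.8e-05, limma), with 0.14 for its other probe. Of 13 osteoclast and RANK genes 7 were higher and 0 lower (median 2.70, or 2.36 with bounds for undetected genes), and 4 were higher with the background block. Ctsk, cathepsin K, the main collagen-cutting enzyme of osteoclasts, read 7.95 and 6.22 in muscle and 15.27, 11.96, 12.31 and 15.48 in the tumours (6.67 ± 0.92, adjusted p = 0.00015). Mmp9, a gelatinase of osteoclasts and macrophages, read 6.37 and 5.99 against 14.77, 11.49, 12.20 and 15.39 (7.28 ± 0.96, adjusted p = 0.00011). Both were over 2 log2 higher in osteosarcomas 1 and 4 than in 2 and 3. Without osteosarcoma 2 the differences were 7.27 and 7.94, Mmp9 gave 6.64 without osteosarcoma 4, and Ctsk gave 7.54 without muscle 1 and 5.81 without muscle 2.

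Further osteoclast genes had the same pair of high tumours. Acp5, the tartrate-resistant acid phosphatase that marks osteoclasts, was not detected in muscle and read 9.89, 6.79, 7.37 and 10.25, at least 7.81-fold higher (adjusted p = 0.0017, limma). Its fitted difference of 4.02 was 4.61 without osteosarcoma 2, and its call was lost with the background block. Tcirg1, a subunit of the proton pump of osteoclasts, went from 6.01 and 5.40 to 10.49, 8.65, 9.28 and 11.33 (4.23 ± 0.57, adjusted p = 0.00012), with 2.03 to 4.33 over its other probes. Oscar, a receptor of the osteoclast lineage, read 9.35, 5.55, 6.75 and 9.99 against 5.41 and 5.69 in muscle and was not called (2.36 ± 0.95, adjusted p = 0.063), but it was called without osteosarcoma 2 (3.15) and without osteosarcoma 3 (2.75), and gave 1.67 without osteosarcoma 4. Calcr, the calcitonin receptor of mature osteoclasts, was detected on 2 of 4 tumours, at 6.09 and 5.32 in osteosarcomas 1 and 4, and was not called (adjusted p = 0.26). The mean over the 13 genes was 9.63 and 9.87 in osteosarcomas 1 and 4 and 7.45 and 7.99 in 2 and 3. Over the 15 bone matrix genes the tumours were closer, at 10.17, 9.48, 9.37 and 9.28. Tnfrsf11b, osteoprotegerin, the decoy that blocks RANK ligand, ran the other way, at 9.02, 9.69, 10.37 and 6.81 in osteosarcomas 1 to 4 against 5.97 and 4.73 (3.63 ± 0.99, adjusted p = 0.011). It was lowest in osteosarcoma 4, its call was lost without muscle 2, and it gave 4.25 without muscle 1 and 4.35 without osteosarcoma 4.

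**Figure D5:**
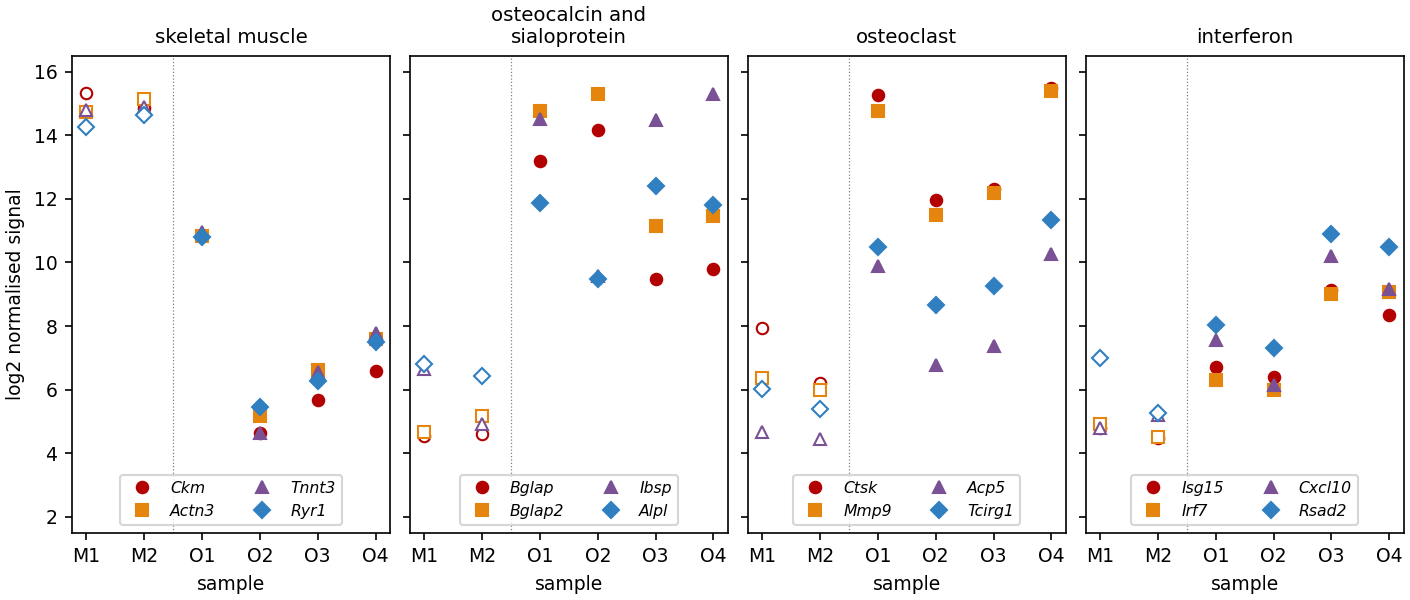
Log2 normalised signal of 16 genes in the 2 muscles (M1 and M2, open symbols) and the 4 osteosarcomas (O1 to O4, filled symbols), in 4 panels by role. The muscle genes are highest in O1 and lowest in O2, osteocalcin is high in O1 and O2 while Ibsp and Alpl are lowest in O2, the osteoclast genes are high in O1 and O4, and the interferon genes are high in O3 and O4.

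Of the signalling genes, 11 of 22 measured growth factor ligands and receptors were higher and 0 lower (median 1.45), 7 with the background block and 7 without muscle 2, where 1 was lower. Ptn, the growth factor pleiotrophin, was not detected in muscle and read 10.27, 9.54, 10.31 and 9.78, at least 20.6-fold higher (adjusted p = 3.1e-06, limma), with −0.08 for its other probe. Igfbp3, a binding protein for insulin-like growth factors, rose from 7.49 and 7.05 to 10.53, 9.38, 10.64 and 10.64 (3.03 ± 0.40, adjusted p = 0.00011). Of 15 Wnt pathway genes 4 were higher and 1 lower (median 0.95), near the 18.5% higher and 14.5% lower over all genes. The median was 0.58 with bounds for undetected genes. With the background block 3 were higher, and with median scaling 3 were higher with a median of 0.26. Ccn4, a secreted Wnt target, rose from 6.78 and 6.45 to 11.78, 12.14, 12.01 and 12.33 (5.45 ± 0.25, adjusted p = 1.2e-07), with 1.91 for its other probe. Wif1, a secreted Wnt inhibitor, was not detected in muscle and read 8.73, 8.81, 7.69 and 7.02, at least 5.47-fold higher (adjusted p = 0.00054). Axin2, a feedback inhibitor that Wnt signalling itself induces, was the lower gene (−1.14 ± 0.37, adjusted p = 0.027). Its call was lost without muscle 2, without osteosarcoma 3, with the background or replicate block, on the 6 arrays alone and on the unsubtracted series matrix. Its value was −1.77 without muscle 1.

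Genes of the TGF-beta and BMP families were 7 higher and 2 lower of 17 measured (median 1.15), and 4 higher and 0 lower with the background block. Tgfb1, the ligand stored in bone matrix, rose from 6.18 and 7.39 to 10.02, 9.34, 9.85 and 9.69 (2.94 ± 0.32, adjusted p = 2.4e-05, limma), 2.34 without muscle 1 and 3.55 without muscle 2. Bmp3, a ligand of osteoblasts and osteocytes, was not detected in muscle and read 9.13, 9.77, 9.06 and 7.29, at least 9.19-fold higher (adjusted p = 0.00023). Inhba, the activin beta A chain, was not detected in muscle and read 7.68 to 8.26, at least 5.39-fold higher (adjusted p = 0.00013). The lower genes were both antagonists of BMP. Chrd, chordin, went from 7.19 and 8.33 to between 5.40 and 6.21 (−1.99 ± 0.46, adjusted p = 0.0043), and Nog, noggin, from 6.80 and 6.71 to between 4.66 and 5.41 (−1.67 ± 0.38, adjusted p = 0.0039). Neither was called with the background block. The call of Chrd was also lost without muscle 2, and that of Nog on the unsubtracted series matrix.

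Proliferation genes rose almost without exception. All 15 measured genes of mitosis were higher (median 3.81), and so were 18 of 20 of DNA replication, with 0 lower (median 2.37). With bounds for undetected genes the medians were 3.65 and 1.87. Plk1, a kinase of mitotic entry and the spindle, was not detected in muscle (4.93 and 4.60) and read 8.96, 9.62, 9.65 and 9.46, at least 14.1-fold higher (adjusted p = 4.3e-07, limma). Cdc20, the activator of the anaphase-promoting complex, rose from 5.65 and 4.64 to 9.38, 10.33, 10.31 and 10.21 (4.92 ± 0.33, adjusted p = 1.4e-06), with 1.75 to 4.27 over its other probes. Mcm5, a subunit of the replicative helicase, rose from 7.27 and 6.58 to 10.22, 11.23, 10.72 and 10.18 (3.67 ± 0.31, adjusted p = 5.1e-06). The mean over the mitosis list was 6.46 and 5.75 in muscle and 9.14, 10.06, 9.94 and 9.64 in osteosarcomas 1 to 4, so osteosarcoma 1, the tumour with the highest fast fibre mean, was the lowest of the 4.

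In the list of the G1 phase and Rb, 7 of 16 measured genes were higher and 1 lower (median 1.54). Ccnd1, cyclin D1, which opens the way to S phase, rose from 7.68 and 7.23 to between 11.10 and 12.86 (4.53 ± 0.48, adjusted p = 2.2e-05, limma). E2f1, the factor that Rb restrains, was not detected in muscle and read 9.41, 9.92, 9.70 and 8.63, at least 13.96-fold higher (adjusted p = 2.1e-06). Cdkn2a, the locus of p16 and of the p19 protein that guards p53, was not detected on either muscle by this probe (4.59 and 4.72) and read 6.81, 7.57, 7.52 and 6.99 in the tumours, at least 3.06-fold higher (adjusted p = 0.00039), with differences of 0.48 and 0.68 for its other probes, by which it was detected on both muscles. Rb1 itself was the lower gene, from 9.26 and 11.07 to 8.73, 8.94, 8.01 and 8.84 (−1.53 ± 0.44, adjusted p = 0.014). Its call was lost without muscle 2, with the background block and on the 6 arrays alone, and its value was −2.44 without muscle 1.

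Of 21 measured targets of p53, 4 were lower and 1 higher (median −0.47), against 14.5% lower and 18.5% higher over all genes. Ccng1, cyclin G1, a transcript that p53 induces, fell from 12.39 and 12.002 to 8.65, 7.90, 7.77 and 8.14 (−4.08 ± 0.30, adjusted p = 2.3e-06, limma). Phlda3, a p53-induced inhibitor of Akt, fell from 10.89 and 10.94 to 8.79, 8.71, 8.65 and 8.10 (−2.36 ± 0.29, adjusted p = 6.0e-05). Rrm2b, the p53-inducible subunit of ribonucleotide reductase, fell from 8.58 and 8.49 to 6.95, 6.06, 7.57 and 6.93 (−1.66 ± 0.37, adjusted p = 0.0037), with −0.31 and −0.09 for its other probes. The fourth was Gadd45a, described with the denervation genes (−2.67 without muscle 2, −6.67 without muscle 1 and −5.26 without osteosarcoma 1). The higher one, Plk3, a stress kinase (1.32 ± 0.41, adjusted p = 0.02), was 2.08 without muscle 2. It lost its call without muscle 1, with the background or replicate block, on the 6 arrays alone and on the unsubtracted series matrix. With median scaling 8 of the 21 were lower, and without muscle 1 the count was 7. The higher count ran from 0 to 2 over the settings.

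The secretory pathway, which bone-forming cells load with collagen, was higher in 14 of 19 measured genes and lower in 1 (median 1.54). Sec24d, the coat subunit that packs procollagen, was not detected in muscle and read 8.55, 8.54, 8.07 and 8.20, at least 6.62-fold higher (adjusted p = 2.9e-06, limma), with 0.32 for its other probe. Sec61a1, the channel through which new proteins enter the endoplasmic reticulum, rose from 7.35 and 7.43 to between 10.07 and 10.44 (2.89 ± 0.24, adjusted p = 4.3e-06), with 0.89 for its other probe. Kdelr3, a receptor that returns resident proteins, rose from 8.43 and 6.64 to between 11.34 and 12.03 (4.14 ± 0.42, adjusted p = 1.7e-05), 5.03 without muscle 1 and 3.25 without muscle 2. Herpud1, a gene of the unfolded protein response, was the lower one, at the edge of the call (−1.02 ± 0.29, adjusted p = 0.015). It lost the call without muscle 1, without osteosarcoma 2, 3 or 4, with the background or replicate block and with the mean of probes. Of 10 ribosomal protein genes 4 were higher and 0 lower (median 0.88), or 2 higher with median scaling and 7 with no fold minimum.

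Among markers of other cell types, macrophage genes were mostly higher. Of 16 measured macrophage genes 12 were higher and 1 lower (median 2.42), with 7 higher and 0 lower under the background block. Their summed signal in log2 was 12.53 and 11.09 in muscle and 13.84 to 14.93 in the tumours. Csf1r, the receptor for the macrophage growth factor, which osteoclasts also carry, went from 8.65 and 7.45 to 11.26, 9.89, 10.34 and 11.44 (2.68 ± 0.43, adjusted p = 0.0004, limma), 3.28 without muscle 1 and 2.08 without muscle 2. Tyrobp, a signalling adaptor of myeloid cells and osteoclasts, went from 6.55 and 4.54 to 10.02, 8.87, 9.45 and 10.15 (4.08 ± 0.48, adjusted p = 5.1e-05), 5.08 without muscle 1 and 3.08 without muscle 2. Cd163, a receptor of resident macrophages, was the lower gene, from 9.28 and 7.57 to 7.07 or less in every tumour (−1.96 ± 0.52, adjusted p = 0.0096, other probe −0.12), −2.81 without muscle 2, and its call was lost without muscle 1 and with the background block. The part of these cells in the osteoclast and protease results was not tested.

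Genes of marrow cells were mostly not called, as were most of all genes tested, of which 33% were called. Of 15 neutrophil genes 1 was higher and 2 lower, but 7 were lower with median scaling and 5 without muscle 2, and of 7 erythroid, 6 B cell and 9 T and NK cell genes 0 were called. Among the 9 lymphocyte genes of the last list, 1 was called higher without osteosarcoma 2 and on the plain log2 of the deposited signals. No muscle array detected 4 of the 7 erythroid, 5 of the 6 B cell and 8 of the 9 T and NK cell genes. The B cell list means were 5.06 to 5.36 on all 6 arrays, near the lowest detected signals. The lack of calls in these lists therefore says little about such cells. Mpo, the peroxidase of neutrophil precursors, was the higher gene, not detected in muscle and at 9.76, 9.26, 8.37 and 9.31 in the tumours (at least 11.8-fold, adjusted p = 2.4e-05, limma), while its 3 other probes gave −0.07 to 3.79. The neutrophil granule gene Ltf was detected on 1 of 4 tumours and was not called (adjusted p = 0.2). S100a8, an alarmin of neutrophils, was lower (9.42 and 11.55 against 8.22, 5.25, 7.28 and 5.96, −3.81 ± 0.78, adjusted p = 0.0021), −4.87 without muscle 1 and −2.74 without muscle 2. Endothelial genes were 2 higher and 1 lower of 15, under the 18.5% higher and 14.5% lower over all genes. Over the settings 1 to 4 were higher and 0 to 2 lower. Pecam1 and Cdh5, the defining pair, were not called (adjusted p = 0.18 and 0.11), except Cdh5 without osteosarcoma 2 (1.09). Of 16 smooth muscle and pericyte genes 4 were higher and 5 lower, or 2 lower with the background block and 3 without muscle 1. Acta2, smooth muscle actin, was not called (12.39 and 11.36 against 13.37, 13.53, 11.29 and 14.85) except without osteosarcoma 3 (2.04), and Myh11, the myosin of smooth muscle, was detected on 0 of 4 tumours, at least 5.78-fold lower (adjusted p = 3.4e-06), with −0.01 for its other probe. Tpm1, a tropomyosin of many cell types, was among the higher ones (3.99 ± 0.41, adjusted p = 1.8e-05), with −0.06 and 3.62 for its other probes.

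Interferon-induced genes split the tumours in another way. Of 9 measured genes 5 were higher and 0 lower (median 2.73, or 2.04 with bounds for undetected genes). But 0 were called with the background block, 2 on the 6 arrays alone and 3 with no filter on detection. Isg15, a ubiquitin-like protein induced by interferon, was not detected in muscle and read 6.70, 6.40, 9.14 and 8.36 in osteosarcomas 1 to 4, at least 4.12-fold higher (adjusted p = 0.004, limma). Cxcl10, an interferon-induced chemokine, was not detected in muscle either and read 7.57, 6.14, 10.20 and 9.17, at least 6.31-fold higher (adjusted p = 0.011), with a fitted difference of 3.28 that was 3.99 without osteosarcoma 2, 2.64 without osteosarcoma 3 and not called without muscle 1, and with 1.30 for its other probe. The list mean was 6.88 and 6.67 in osteosarcomas 1 and 2 and 9.63 and 8.81 in osteosarcomas 3 and 4, against 6.29 and 5.11 in muscle. Osteosarcomas 3 and 4, low in osteocalcin, thus held the higher interferon signal, while 1 and 4 held the higher osteoclast signal. These orders rest on 4 tumours and are descriptions. Of 12 genes that respond to handling of tissue, 2 were higher and 2 lower, near the 18.5% higher and 14.5% lower over all genes. Over the settings that keep both muscles the counts were 1 to 3 and 0 to 2. Among the lower genes was Dusp1, an immediate early phosphatase (−1.22 ± 0.40, adjusted p = 0.028, limma). Dusp1 lost its call without either muscle, without osteosarcoma 2 and with the background or replicate block.

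To ask which differences from muscle were unequal in the other tumour of the study, osteosarcoma was set against leiomyosarcoma in the same limma model, a contrast in which muscle cancels. It called 899 of 11754 genes (7.65%). Of the genes higher than muscle, 235 were also higher than leiomyosarcoma and 95 were lower than it, and of the genes lower than muscle, 73 were also lower and 42 were higher than leiomyosarcoma. Bone genes were among those called higher than in leiomyosarcoma. Alpl, detected on 4 of 4 leiomyosarcomas, had an osteosarcoma minus leiomyosarcoma difference of 5.73. Sp7 was detected on 0 of 4 leiomyosarcomas and was at least 135-fold higher in osteosarcoma. The fitted difference was 6.84 for Panx3, 8.35 for Ibsp, 8.01 for Bglap2 and 5.26 for Pth1r, which were detected on 3, 2, 1 and 1 of 4 leiomyosarcomas, so most of these values rest on signals near background. Of the 15 bone matrix genes 9 were higher and 1 lower than in leiomyosarcoma, with a median difference of 2.05. Of 15 mitosis genes 1 and of 20 replication genes 0 were called between the tumours, with medians of 0.25 and −0.07. Counts this low, and that of the fast fibre genes below, lie near the 7.65% called over all genes. Of the 13 fast fibre genes 0 were called, with a median of 2.18 in the direction of osteosarcoma, and the spread among the osteosarcomas set out above enters that test.

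Some genes of the muscle and matrix sides also differed between the tumours. Fabp3, the fatty acid-binding protein of heart and muscle, was lower than muscle in osteosarcoma (12.04 and 13.22 against 10.18, 9.61, 8.99 and 9.52, −3.05 ± 0.34, adjusted p = 3.6e-05, limma) but at least 20.6-fold higher than in leiomyosarcoma, where it was detected on 0 of 4 arrays. That difference from muscle was −3.64 without muscle 1 and −2.46 without muscle 2. Fmod, fibromodulin, a collagen-binding proteoglycan, read 5.21 and 6.28 in muscle and 10.38, 10.71, 10.04 and 9.28 in osteosarcoma (4.36 ± 0.53, adjusted p = 6.0e-05), 4.99 higher than in leiomyosarcoma, where 1 of 4 arrays detected it. Inhba, although higher than muscle in both tumours, was 1.35 lower in osteosarcoma than in leiomyosarcoma, and Tgfbi, an adhesion protein induced by TGF-beta, 1.90 lower. Tgfbi rose against muscle by 2.01 ± 0.41 (adjusted p = 0.0022), was 2.60 without muscle 1 and 1.42 without muscle 2, and was not called with the background block. Slc2a1, the glucose transporter of proliferating cells, was not called against muscle (0.69 ± 0.39, adjusted p = 0.18) and was 2.32 lower than in leiomyosarcoma, a called difference.

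Xist, the RNA that silences an X chromosome in females, split the muscles and lay apart in the tumour types. It read 4.74 in muscle 1 and 10.32 in muscle 2, 11.93, 9.53, 10.48 and 11.17 in the osteosarcomas, and 4.51 to 4.63 in the leiomyosarcomas, where 0 of 4 arrays detected it (at least 47.4-fold higher in osteosarcoma, a called difference). The call against muscle (3.25 ± 1.11, adjusted p = 0.033, limma) was lost without muscle 1 and without osteosarcoma 1 or 4. It was also lost with the background or replicate block, on the 6 arrays alone, with the mean of probes and with no filter on detection. The value of Xist was 6.04 without muscle 2. Its other probes gave 0.46 to 2.78. The labels give no sex, and the other 3 measured sex-linked genes were not called. Each difference from muscle is therefore one in which the muscles disagree for Xist and the tumours do not, and its part in the other results was not tested. In the comparison of the tumours, Xist and tumour type cannot be told apart.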

How the data were processed

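Fresh-frozen mouse tissue was measured on 12 arrays, with groups from the tissue labels and samples numbered within each group. Per the file headers, the deposited signal intensity of each of 45281 probes had 1 background constant per array subtracted by the authors and was not normalised between arrays, and each detection p-value was deposited beside it. The deposited series matrix holds the same intensities unsubtracted, and no source used here says how bead signals were averaged. Per the labels' protocols, RNA was extracted with Trizol and biotinylated cRNA made with a MessageAmp kit. All columns matched a sample.

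Signals were background-corrected, quantile-normalised and taken to log2 by neqc in limma 3.58.1 under R 4.3.3 with an offset of 16, and the detection p-values gave the background because no negative control beads were given. Probes with a detection p under 0.05 on at least 2 arrays were kept (21383, of which 18013 had a gene name in the probe annotation). A gene with several probes (4323 of 11754) took the brightest over all arrays. Limma was run with 1 mean per tissue over all 12 arrays, so that groups of 2 share the spread of the others, with calls at an adjusted p under 0.05 and a log2 difference of at least 1. "At least N-fold" sets a gene with no detection in a group at the lowest detected signal of each array or its own, if higher. A list median with bounds uses that value for such genes and the fitted difference for the rest. Named genes are the 12 largest rises and falls without overlap between groups, up to 5 called members per list plus called members opposite to their list, isoform pairs and cell type markers. Samples and lists were chosen with earlier results of these data known, so list counts are descriptions. The fit was tested on simulated data. Promoter sequences are RefSeq's. Precision is limited by the number of arrays. Figures were drawn with matplotlib 3.10.9.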

Additional observations from a re-analysis of the deposited data

Results flagged for a closer look

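In a group of 4 samples, a value that stands apart from the other 3 by Dixon's 95% limit was looked for in the 4 osteosarcomas over the 123 genes named, and 10 showed one, where chance flags about 1 in 20. Osteosarcoma 1 stood apart as the highest for the muscle genes Ckmt2 (9.48), Tuba8 (5.34) and Cpt1b (8.04) and for Ltf (6.36). Tuba8 and Ltf were detected on osteosarcoma 1 alone among the tumours, so their flags rest on background signals in the others. Osteosarcoma 2 stood apart as the lowest for Ibsp (9.58), Igfbp3 (9.38) and Dusp1 (8.36). Cdc20 was lowest in osteosarcoma 1 (9.38), Sp7 in osteosarcoma 4 (11.93), and Slc2a1 was highest in osteosarcoma 3 (9.42).

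Against muscle, 13 genes were called in opposite directions in osteosarcoma and leiomyosarcoma and were also called between the tumours in limma. Except for Alx4, Comp and Xist they were chosen after their values were seen. Given as osteosarcoma minus leiomyosarcoma in log2, 8 were higher in osteosarcoma, namely Xist (6.21), the homeobox gene Alx4 (5.02), Gpx3, the secreted glutathione peroxidase (4.72), Ppm1e, a phosphatase (4.21), Comp (3.23), Gucy1a1, a subunit of the nitric oxide receptor guanylate cyclase (3.10), Farp2 (2.92) and Grb14, an adaptor that inhibits the insulin receptor (2.15). The 5 that were lower were Igfbp6, a binding protein for insulin-like growth factor (−5.23), Pdpn, podoplanin (−3.90), Rgma, a co-receptor for BMP (−3.84), Tbx3, a T-box factor (−3.33), and Vegfd, a growth factor of lymphatic vessels (−2.53). By the probes used, Xist and Comp were detected on 0 of 4 leiomyosarcomas and Tbx3 on 0 of 4 osteosarcomas. This bounds them at 47.4-fold and 7.46-fold higher and 8.47-fold lower than in leiomyosarcoma at least. Alx4 and Ppm1e were detected on 1 leiomyosarcoma and Vegfd on 1 osteosarcoma. Against muscle the bound of Tbx3 was 0.76 log2 lower (1.69-fold), under the log2 minimum of 1 for a call. The call of Comp against muscle was lost under most settings and that of Xist under several, and Xist read 4.74 and 10.32 in the muscles. Gpx3 read 11.44 and 10.93 in muscle, 12.27 to 13.57 in osteosarcoma and 7.49 to 8.94 in leiomyosarcoma. Igfbp6 read 9.13 and 7.19 in muscle, 4.63 to 5.85 in osteosarcoma and 10.08 to 11.51 in leiomyosarcoma.

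Among the 3370 detected probes with no gene name, which the comparisons above do not use, 500 were higher and 355 lower in osteosarcoma than in muscle by the same limma thresholds.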

How the results depend on the processing

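The counts over all genes (higher, lower and between the tumours) stayed within 1.5 times under all settings except these, while in 25 of the 43 gene lists the count of calls in the list's main direction moved by over 1.5 times under at least 1 setting. The unsubtracted series matrix gave 1390 higher genes and 510 between the tumours, and no fold minimum gave 1428 between the tumours. Leaving out 1 sample gave 1901 to 2237 higher, 1651 to 1732 lower and 772 to 941 between the tumours. With median scaling 40.9% of calls were higher, against 56.0%. The background block (1461 higher, 1184 lower, 684 between the tumours) ended 24 of the 111 calls named in the text and kept the rest, and without 1 sample 15 lost their call in at least 1 run. Under all 17 settings 85 of the 111 kept direction and call. Reversed values were −1.22 for Tpm3 and −0.29 for Ncam1 with the mean of probes and, for genes not called, a range of −0.67 to 0.26 for Dmp1 without 1 sample (above 0 without muscle 2), −0.28 for Calcr with median scaling, and −0.16 for Acta2 and −0.28 for Slc2a1 with the background block. The cause was not tested. Muscle and osteosarcoma samples of the same number did not deviate together (correlations −0.07 and 0.02). The numbers only give the order of samples within each group. Neither this check nor the replicate block therefore tests a known pairing. The replicate block gave 2065 higher, 1626 lower and 873 between the tumours, with 3491 of its calls shared. Neither pairs muscle 1 with bone marrow 2, the arrays that share a title code. Without 1 muscle, the lone one is assumed to vary like the other groups. Signals under about 5.20 to 5.62, the lowest detected on these arrays, have no order.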
